A study of Homo sapiens with 6 samples.

Results

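Counts of 10 genes for subunits of eukaryotic initiation factor 3 (eIF3) were read from a table of 58825 genes measured in HGC-27 gastric cancer cells. The 10 are EIF3A, EIF3B, EIF3C, EIF3CL, EIF3D, EIF3E, EIF3F, EIF3G, EIF3H and EIF3I, found by their Ensembl IDs in GENCODE version 44. EIF3C and EIF3CL, near-identical copies of one gene, were selected on their opposite differences between the groups in these libraries, so their values are given as a description and without a test. The other 8 were listed as subunits of the same complex and not by how they moved. That list was made with earlier results of these data known. The remaining subunits EIF3J, EIF3K, EIF3L and EIF3M, 4 genes, were read beside them.

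The study made HGC-27 cells overexpress GC0643, a gene it predicted from sequence that did not align to the reference genome, and asked what changed in their RNA. The 3 libraries labelled GC0643 overexpression came from cells that carried the GC0643 vector, and the 3 libraries labelled vector control came from cells that carried the vector alone. Both lines were HGC-27 cells grown in serum-containing RPMI medium, and stable lines were made by retroviral infection with puromycin selection. Whether each line was a pool or a clone is not stated. The methods speak of independent replications for work in cells in general, but do not say for these libraries whether the 3 replicates of a group were separate cultures. P-values therefore measure only the spread between these samples, which may be technical. Counts of GC0643 were not analysed here, which leaves the labels unchecked. Every direction below, those of EIF3C and EIF3CL above all, holds only as the libraries are labelled and is unsure to that extent, since exchanged labels would turn every sign and leave the sizes as they are. In RNA from bulk cells, fewer cells that express a gene and less RNA per cell cannot be told apart.

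Total counts were 20376722 to 21629573 in the GC0643 overexpression libraries and 20489033 to 24069166 in the vector control libraries. Levels are given as CPM (counts per library scaled by TMM to a common total). Of 5 epithelial markers, only KRT8 had a mean above 1 CPM, and their summed level was 4.25 to 8.33 CPM with GC0643 overexpression and 5.82 to 6.94 CPM with vector. None of the 6 gastric markers reached a mean of 1 CPM, and TFF2 and GKN1 were at 0 in every library. Of 4 mesenchymal markers, VIM, FN1 and ZEB1 had a mean above 1 CPM and CDH2 did not. That list summed to 3169 to 3444 CPM with GC0643 overexpression and 3116 to 3340 CPM with vector. The fibroblast markers COL1A1, DCN and PDGFRB summed to 1670 to 1809 CPM with GC0643 overexpression and 1644 to 1936 CPM with vector. Blood markers, with HBB and CD3E at 0, and endothelial markers, with PECAM1 at 0, stayed under 0.5 CPM when summed in every library.

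The factor eIF3 is the largest of the initiation factors. It binds the small ribosomal subunit, helps to load the initiator tRNA and the mRNA, and keeps the large subunit away until the start codon is found. EIF3A and EIF3C are the large scaffold subunits around which the core is built, EIF3B, EIF3G and EIF3I form a mobile module, and EIF3D can bind the mRNA cap. EIF3CL, "EIF3C like", is a second protein-coding copy of EIF3C in the human genome.

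The copies lie 284.7 kb apart on chromosome 16 and on opposite strands, EIF3C at chr16:28688558-28735727 on the plus strand and EIF3CL at chr16:28379579-28403841 on the minus strand (GRCh38, GENCODE version 44). Their canonical transcripts have 21 exons each, with 2910 bases in EIF3C and 2913 in EIF3CL. Aligned end to end, the transcripts had 0 mismatched bases and 1 difference, a run of 3 bases present only in EIF3CL. That run is one more GAG codon in a stretch of them within the coding part of exon 9, with 5 in EIF3CL and 4 in EIF3C. The site is shown because it is the only place where the canonical transcripts can be told apart. Both stretches come from GRCh38, at chr16:28392016-28392078 on the minus strand for EIF3CL and at chr16:28723228-28723287 on the plus strand for EIF3C, and capitals mark the extra codon.
EIF3CL: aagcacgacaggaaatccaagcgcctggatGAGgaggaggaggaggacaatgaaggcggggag
EIF3C: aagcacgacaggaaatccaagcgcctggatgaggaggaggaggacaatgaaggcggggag

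A read can be placed on one copy only if it covers such a difference. Of all 100-base windows, 97.0% of those in the EIF3C transcript also occurred in EIF3CL, and 96.9% of those in the EIF3CL transcript also occurred in EIF3C. With windows of 50 bases the shares were 98.8% and 98.7%, and with 150 bases they were 95.1% and 95.01%. Over all annotated exons searched against the whole of chromosome 16, 252 windows of 100 bases in EIF3C were found once, all within a single merged exon of 2069 bases at chr16:28721255-28723323 that holds the site above and a retained intron. In EIF3CL 55 windows were found once, all within the exon of 163 bases at chr16:28391980-28392142 that holds the site. EIF3C, from the start of its canonical transcript to the gene end, was also aligned with the EIF3CL gene. These stretches of 24264 and 24263 bases differed by 32 edits, of which 27 lay in introns. The part of EIF3C before that start was left out. The paper's methods describe counting of uniquely mapped reads alone for its tumor RNA libraries. Whether this held for the cell libraries is not given in the sources used here. The part of such counting in the values of the pair was not tested.

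EIF3C had higher counts with GC0643 overexpression in 2 of 3 libraries, and EIF3CL had lower counts there in all 3, although its groups met once scaled to CPM. EIF3C had 1053, 1834 and 505 counts in GC0643 overexpression replicates 1, 2 and 3, against 633, 468 and 621 in vector control replicates 1, 2 and 3. Replicates 1 and 2 of GC0643 overexpression were above all vector libraries, whereas replicate 3 lay within them, so the groups overlapped. In CPM the means were 53.5 ± 31.1 with GC0643 overexpression and 26.6 ± 4.28 with vector (SD, n = 3 each), a log2 fold change of 1.01 (SE 0.30).

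EIF3CL had 92, 124 and 184 counts in GC0643 overexpression replicates 1, 2 and 3, against 627, 822 and 218 in vector control replicates 1, 2 and 3. In CPM these were 4.29, 5.85 and 9.07 with GC0643 overexpression, against 30.9, 39.9 and 9.06 with vector. Vector control replicate 3 stood far below the other vector libraries and level with GC0643 overexpression replicate 3, so that the groups met at their edges. The means were 6.41 ± 2.44 CPM with GC0643 overexpression and 26.6 ± 15.8 CPM with vector (SD, n = 3 each), a log2 fold change of -2.05 (SE 0.40) as the libraries are labelled. Across all genes tested, 482 of 19528 (2.47%) were past a fold change of 1.5 with an unadjusted p under 0.05, the thresholds of the study. Nothing is read from these for EIF3C and EIF3CL, since the pair was selected on its differences in the same libraries.

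Added together, the pair did not separate the groups. The summed count was 1145, 1958 and 689 in GC0643 overexpression replicates 1, 2 and 3, against 1260, 1290 and 839 in vector control replicates 1, 2 and 3. In CPM this was 53.4, 92.4 and 34.0 with GC0643 overexpression, against 62.1, 62.6 and 34.9 with vector. GC0643 overexpression replicate 2 was the highest library, and replicate 3 was the lowest of each group. The log2 fold change of the sum was 0.17 (SE 0.28), smaller in size than that of either copy. Its direction rested on single libraries: it became -0.29 when GC0643 overexpression replicate 2 was left out, and -0.06 when vector control replicate 3 was.

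**Figure D1:**
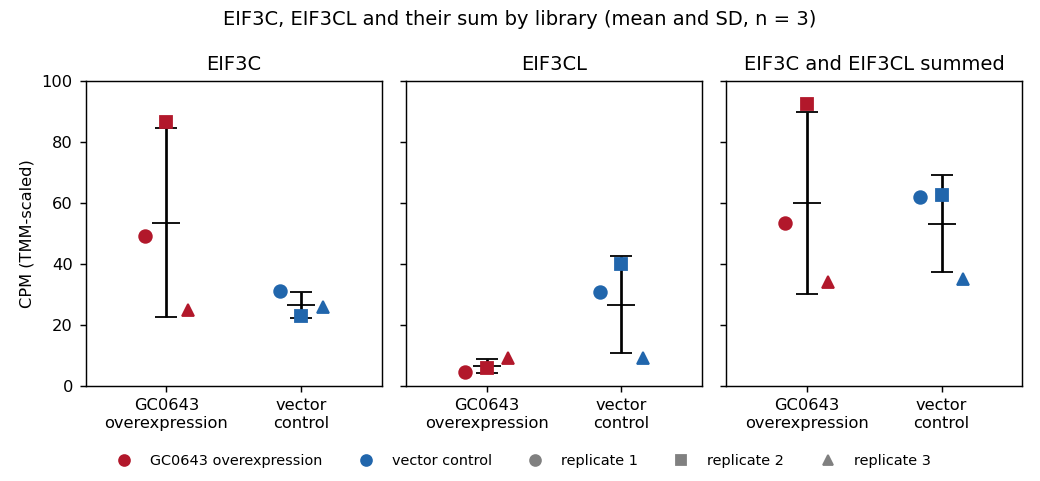
CPM of EIF3C, EIF3CL and their sum in each library, with GC0643 overexpression left and vector control right; symbols mark the replicate number, and bars give the mean and SD of 3 libraries. EIF3C of GC0643 overexpression replicate 2 (86.5 CPM) is the highest value of a single copy, and EIF3CL of both replicates 3 lies at 9.1 CPM.

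The division of the pair's counts between its copies differed more between libraries than their sum did. EIF3CL took 8.03% of them (exact 95% binomial interval 6.53 to 9.76%) in GC0643 overexpression replicate 1, 6.33% (5.29 to 7.504%) in replicate 2 and 26.7% (23.4 to 30.2%) in replicate 3. In the vector control it took 49.8% (47.0 to 52.6%) in replicate 1, 63.7% (61.03 to 66.3%) in replicate 2 and 26.0% (23.0 to 29.1%) in replicate 3. Both replicates 3 thus had nearly the same share, with intervals that overlapped, while replicates 1 and 2 averaged 7.18% with GC0643 overexpression and 56.7% with vector. These intervals cover counting error only, because reads without molecular identifiers are not independent molecules. The mean share was 13.7 ± 11.3% with GC0643 overexpression and 46.5 ± 19.1% with vector (SD, n = 3 each), a difference of -32.8 percentage points.

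Over the 6 libraries, log2 CPM of EIF3C and EIF3CL had a Pearson r of -0.62, given as a description over points that share libraries and may share reads. The pair was selected on opposite differences in these libraries, which favours a negative r, so nothing is read from it. The spread of the sum within groups was also wide, with a pooled SD of 0.61 in log2 CPM, against 0.06 (EIF3D) to 0.36 (EIF3A) for the 12 other subunits. Of 5107 tested genes with a mean count between 0.5 and 2 times that of the sum, 15 (0.294%) had a spread as wide or wider. The median spread of those genes was 0.16. The rank of the sum among them is a description only, since the pair was selected on its differences in these libraries.

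**Figure D2:**
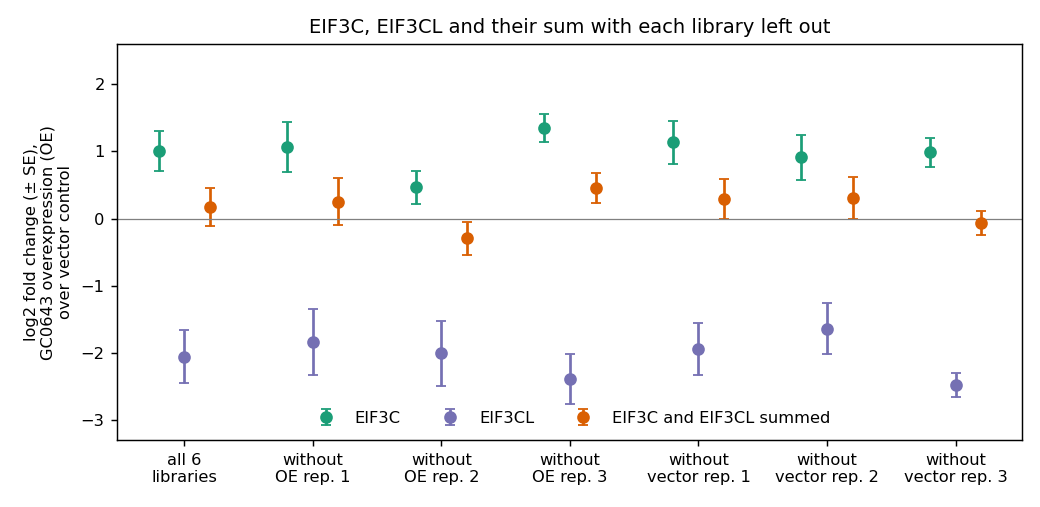
Log2 fold change of GC0643 overexpression over vector control for EIF3C, EIF3CL and their sum, with SE, over all 6 libraries and with each library left out. EIF3CL stays between -2.48 and -1.63 and EIF3C between 0.47 and 1.35, whereas the sum lies on either side of 0.

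EIF3CL kept a negative log2 fold change with each library left out, from -2.48 without vector control replicate 3 to -1.63 without vector control replicate 2. EIF3C kept a positive one, but it was 0.47 without GC0643 overexpression replicate 2 and 1.35 without GC0643 overexpression replicate 3. The pair was selected on these opposite differences in the same libraries, so the kept signs are a description only.

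Other human genes with a close copy were read in the same way, from a list of 6 pairs. BOLA2 and BOLA2B, SLX1A and SLX1B, and SULT1A3 and SULT1A4 lie on chromosome 16, SMN1 and SMN2 and SERF1A and SERF1B on chromosome 5, and CCZ1 and CCZ1B on chromosome 7. Of 100-base windows in the first canonical transcript of each pair, the share found in the second was lowest for SERF1A, at 36.3%. CCZ1 followed at 59.3%, against 97.0% for EIF3C, and every window of SLX1A occurred in SLX1B. SMN1 was at 85.5%, BOLA2 at 91.0% and SULT1A3 at 99.1%. By this share the pairs of SERF1A, CCZ1, SMN1 and BOLA2 were less alike on these transcripts than EIF3C and EIF3CL. In the other direction BOLA2B stood at 98.9%, against 96.9% for EIF3CL. Several of these shares also moved between replicates of a group, and replicate 3 was the one that stood apart. SLX1B, a subunit of a structure-specific nuclease, took 12.1, 20.5 and 11.2% of its pair in the GC0643 overexpression libraries, against 11.2, 15.9 and 79.3% in the vector libraries. These rest on 8 to 18 counts of SLX1B in every library but vector control replicate 3, which had 338. SULT1A4, a sulfotransferase that acts on catecholamines, took 47.8, 47.4 and 94.2% with GC0643 overexpression, against 32.0, 28.0 and 73.0% with vector. The summed counts of that pair were low, at 23, 19 and 191 with GC0643 overexpression, against 25, 25 and 37 with vector. Replicate 3 was thus the highest library of both groups for SULT1A4, and of the vector group for SLX1B.

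BOLA2B, which works in iron-sulfur cluster handling, took 8.78 to 9.41% of its pair with GC0643 overexpression and 10.3, 15.9 and 41.3% with vector. SMN2, the second copy of the survival motor neuron gene, took 40.4, 52.7 and 28.1% with GC0643 overexpression, against 45.9, 42.9 and 29.3% with vector, so both replicates 3 were the lowest. CCZ1B stayed between 37.2 and 46.2% in all libraries, and its lowest share was in vector control replicate 3, with an interval of 34.3 to 40.2% that lay below those of the other vector libraries. SERF1B took at most 82.5%, on summed counts of only 24 to 55. The range over libraries was 57.4 percentage points for EIF3CL, against 8.997 for CCZ1B and 68.1 for SLX1B, the narrowest and the widest of the 6 pairs. The pair of CCZ1B also had fewer windows in common than that of EIF3CL, so these ranges are not of like pairs.

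**Figure D3:**
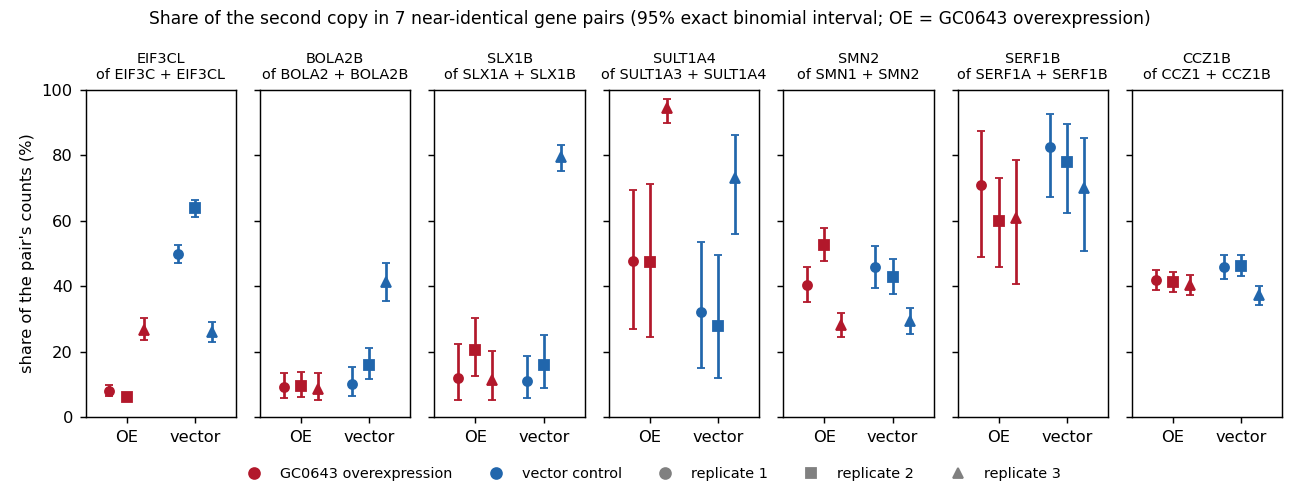
Share of the second copy in the counts of 7 gene pairs, not all equally alike in sequence, one panel per pair, with GC0643 overexpression (OE) left and vector control right. Symbols mark the replicate number and bars the exact 95% binomial interval. Replicate 3 stands apart in one or both groups for EIF3CL, BOLA2B, SLX1B, SULT1A4 and SMN2. CCZ1B has the narrowest range, 37.2 to 46.2%, with its lowest share in vector control replicate 3.

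The 8 other listed subunits were divided in direction, with log2 fold changes above 0 for 4 (EIF3A, EIF3D, EIF3E and EIF3H) and below 0 for 4 (EIF3B, EIF3F, EIF3G and EIF3I). Their median was -0.01, beside 0.02 over all 19528 genes tested. None passed an adjusted p of 0.05 in edgeR's quasi-likelihood test with Benjamini-Hochberg adjustment, and neither did any gene of the table (0.0%). DESeq2 and limma voom also passed none of the 8, and over the whole table DESeq2 passed 1 gene and limma voom 0. At an unadjusted p under 0.05, 3 of the 8 were higher with GC0643 overexpression, beside 13.1% of all genes, and none was lower, beside 5.26%. With EIF3J, EIF3K, EIF3L and EIF3M added, 6 of 12 were higher at that level and the median was 0.16.

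In the scaffold, EIF3A, the partner of EIF3C, had 204, 185 and 235 CPM with GC0643 overexpression, against 151, 210 and 109 CPM with vector. Vector control replicate 2 lay among the GC0643 overexpression libraries, so the groups overlapped. The log2 fold change was 0.41 (SE 0.19, edgeR adjusted p = 0.27).

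EIF3E, a core subunit known as the product of a mouse mammary tumor virus integration site, had the largest positive value of the listed genes outside the pair. It had 196, 204 and 194 CPM with GC0643 overexpression, against 128, 167 and 106 CPM with vector. All GC0643 overexpression libraries were above all vector libraries, and the log2 fold change was 0.56 (SE 0.15, edgeR adjusted p = 0.26). EIF3M, another core subunit, had 152, 157 and 156 CPM with GC0643 overexpression, against 99.3, 139 and 83.2 CPM with vector. Its groups did not overlap either, with a log2 fold change of 0.53 (SE 0.16, edgeR adjusted p = 0.26). For both genes vector control replicate 2 was the vector library nearest to the GC0643 overexpression libraries and replicate 3 the farthest.

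EIF3H and EIF3F, core subunits with a metalloprotease-like fold, went opposite ways. EIF3H had 132, 128 and 121 CPM with GC0643 overexpression, against 103, 117 and 99.8 CPM with vector, with a log2 fold change of 0.26 (SE 0.12, edgeR adjusted p = 0.27). EIF3F had 186, 191 and 176 CPM with GC0643 overexpression, against 200, 194 and 226 CPM with vector, with a log2 fold change of -0.16 (SE 0.12, edgeR adjusted p = 0.41). The groups of neither gene overlapped. EIF3L and EIF3K, a pair of subunits at the edge of the core, had log2 fold changes of 0.26 (SE 0.11) and -0.17 (SE 0.12), and only those of EIF3L did not overlap. Of the 12 subunits, 4 (EIF3E, EIF3H, EIF3L and EIF3M) thus had all GC0643 overexpression libraries above all vector libraries, beside 11.8% of all genes tested, and EIF3F had all of them below, beside 10.5%.

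The subunits of the mobile module had small negative values. EIF3B, its scaffold and an RNA-binding subunit, had a log2 fold change of -0.14 (SE 0.13), EIF3G, with an RNA recognition motif, had -0.18 (SE 0.12), and EIF3I, a propeller-shaped subunit, had -0.09 (SE 0.12). All 3 had overlapping groups, for example 428 to 571 CPM of EIF3B with GC0643 overexpression and 538 to 606 CPM with vector. EIF3D, the cap-binding subunit, differed least, with 202 ± 5.86 CPM with GC0643 overexpression and 194 ± 10.5 CPM with vector (SD, n = 3 each) and a log2 fold change of 0.06 (SE 0.11). EIF3J, a loosely bound subunit that leaves the ribosome as initiation proceeds, had 72.4, 76.4 and 82.7 CPM with GC0643 overexpression, against 59.4, 74.6 and 48.3 CPM with vector. Its log2 fold change was 0.35 (SE 0.15, edgeR adjusted p = 0.27), and its groups overlapped through vector control replicate 2.

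The differences of the subunits were set beside the base composition of their transcripts. Over all genes tested, log2 fold change and the GC content of the canonical transcript had a Spearman correlation of -0.67, a description over genes that share the same libraries. The 6 subunits with a GC content under 45%, a limit chosen after the values were seen (EIF3A, EIF3E, EIF3F, EIF3H, EIF3J and EIF3M), had a median log2 fold change of 0.38, beside 0.31 for all 6682 tested genes under that limit, and 5 of them were above 0, EIF3F being the exception. The 6 others had a median of -0.11, beside -0.12 for 12719 genes, and 4 of them were below 0, with EIF3D and EIF3L above it. After a loess correction for GC content, the log2 fold change became 0.25 for EIF3E, 0.23 for EIF3M, 0.21 for EIF3A, 0.04 for EIF3J and -0.03 for EIF3H. That of EIF3F became -0.47. The canonical transcript of EIF3F has 6920 bases, of which 1071 are coding, so its GC content is mostly that of noncoding sequence. Its place under the limit and its corrected value depend on that choice of transcript, and other transcripts were not tested. EIF3C and EIF3CL have nearly the same GC content, 54.8% each, and kept values of 1.12 and -1.97.

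Among the vector libraries, the subunits with low GC content were spread widely. Their median log2 ratio to each gene's own mean was 0.19, 0.16 and 0.27 in GC0643 overexpression replicates 1, 2 and 3, against -0.21, 0.09 and -0.55 in vector control replicates 1, 2 and 3. Vector control replicate 2 thus lay nearest to the GC0643 overexpression libraries. Without it, EIF3E (adjusted p = 0.010), EIF3M (0.010), EIF3A (0.012) and EIF3J (0.017) passed in edgeR's quasi-likelihood test, with log2 fold changes of 0.76, 0.76, 0.68 and 0.52, and 3813 genes of the table passed with them. Without vector control replicate 3 none of the 12 passed, and EIF3E had a log2 fold change of 0.41. The part of base composition in these differences was not tested beyond the correction.

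**Figure D4:**
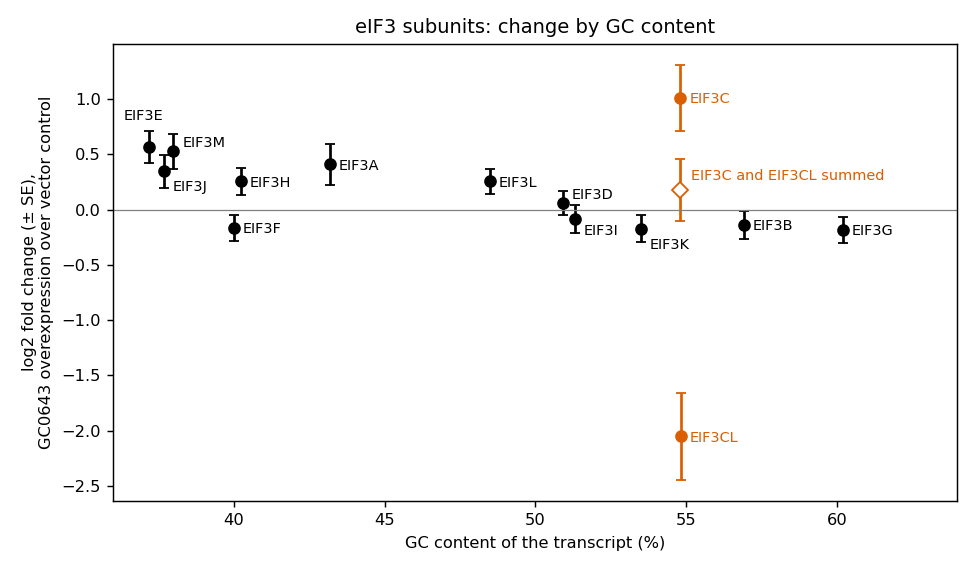
Log2 fold change of GC0643 overexpression over vector control, with SE, against the GC content of the canonical transcript for each eIF3 subunit; EIF3C, EIF3CL and their sum are in orange. The 12 other subunits lie between -0.18 and 0.56 and the copies at 1.01 and -2.05.

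Levels of different subunits were compared as CPM per kilobase of canonical transcript. The length planned as the main one was that of merged exons, on which the pair stood less low, as given below. EIF3G was highest, with 209 ± 19.0 with GC0643 overexpression and 237 ± 19.6 with vector, and EIF3B and EIF3K followed (SD, n = 3 each). EIF3C and EIF3CL summed were lowest of 13, at 20.6 ± 10.2 with GC0643 overexpression and 18.3 ± 5.44 with vector. The next in order was EIF3M, at 30.7 ± 0.53 with GC0643 overexpression and 21.3 ± 5.71 with vector. On this length the sum did not differ from EIF3M beyond the spread between replicates. EIF3A, EIF3J, EIF3F and EIF3H followed, with means of 27.4 to 29.5 over all libraries. Their order differed between the groups, with EIF3F at 26.6 ± 1.13 and EIF3H at 32.1 ± 1.29 with GC0643 overexpression, and EIF3F at 29.8 ± 2.47 and EIF3H at 26.9 ± 2.29 with vector (SD, n = 3 each). EIF3I, at 78.3 over all libraries, came next and was clear of them. The sum came to 24.2% of the median level of the 12 other subunits on this length.

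The length used set how low the pair stood. Per kilobase of coding sequence it was again lowest and came to 16.9% of that median. Per kilobase of merged exons the pair was the 12th of 13 and came to 46.9%, above EIF3E alone, for which the annotation gives 37761 bases of merged exon. How reads shared by both copies were counted also bears on the level of the pair, and its part was not tested.

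**Figure D5:**
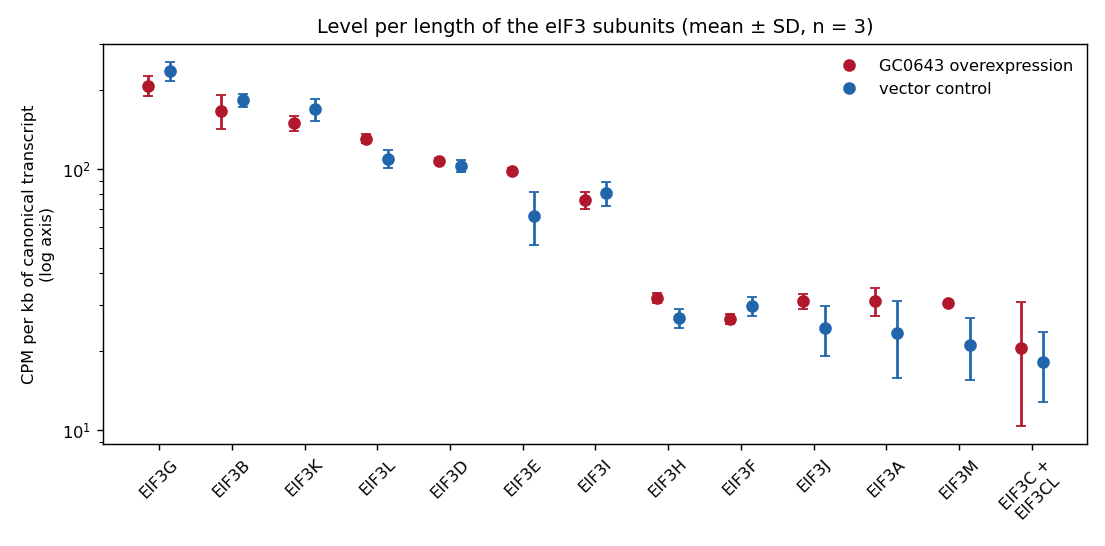
Level of each eIF3 subunit as CPM per kilobase of canonical transcript on a log axis, with the mean and SD of 3 libraries per group, GC0643 overexpression left of vector control, in order of the mean over all libraries. EIF3C and EIF3CL summed are lowest (20.6 and 18.3), and EIF3G is highest (209 and 237).

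Copies of subunit genes elsewhere in the genome took few counts. The table held 16 eIF3 pseudogenes, of which 6 had no count in any library and 3 had a mean of 10 counts or more. EIF3FP3 on chromosome 2 had 399, 398 and 342 counts with GC0643 overexpression, against 410, 345 and 560 with vector, which is 9.79% of the counts of EIF3F. It is the pseudogene nearest in sequence to its parent, with 31.6% of its 100-base windows found in EIF3F transcripts, so reads of the 2 may be exchanged. Vector control replicate 3 was its highest library, as it was for EIF3F. EIF3EP1 had 23 to 50 counts and EIF3FP1 had 14 to 30, each with groups that overlapped.

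Most of 27 other initiation factors had log2 fold changes above 0 (21 genes, against 6 below), and their median was 0.24 beside 0.02 over all genes. None passed the adjusted p in edgeR's quasi-likelihood test. An unadjusted p under 0.05 was reached by 8 higher genes, beside 13.1% of all genes, and by 0 lower ones. EIF4A2, an RNA helicase, was at 178 ± 18.1 CPM with GC0643 overexpression and 128 ± 23.6 CPM with vector (SD, n = 3 each), a log2 fold change of 0.47 (SE 0.14). DENR, which acts in reinitiation and ribosome recycling, had 0.44 (SE 0.16), EIF4B, a cofactor of the helicase, had 0.38 (SE 0.14), and EIF5, which stimulates GTP hydrolysis by eIF2, had 0.36 (SE 0.13). These 4 had a GC content of 38.7 to 44.8% in their transcripts, and each had an adjusted p of 0.26.

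The 7 regulators of initiation divided into 4 above 0 and 3 below, with a median log2 fold change of 0.16. None passed the adjusted p in edgeR's test, and an unadjusted p under 0.05 was reached by 1 higher gene, beside 13.1% of all genes, and 1 lower gene, beside 5.26%. EIF4EBP1, the inhibitor of the cap-binding protein, was at 178 ± 9.40 CPM with GC0643 overexpression and 245 ± 54.2 CPM with vector (SD, n = 3 each). Its groups did not overlap, with a log2 fold change of -0.46 (SE 0.14, edgeR adjusted p = 0.26) and a GC content of 62.9%. The eIF2 kinases EIF2AK2, EIF2AK3 and EIF2AK4 had 0.37 (SE 0.16), 0.42 (SE 0.21) and 0.21 (SE 0.15), with groups that overlapped.

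Protein-coding genes within 500 kb of EIF3C or EIF3CL numbered 18 among those tested. Log2 fold changes were below 0 in 17 of them, the median was -0.24, none passed the adjusted p in edgeR's test, and 4 reached an unadjusted p under 0.05 with lower values, beside 5.26% of all genes. Their transcripts had a median GC content of 58.6%, and the 12961 tested genes between the lowest and the highest of them had a lower median GC content, 53.5%, and a median log2 fold change of -0.10. The 18 are not all separate measures, since CLN3 overlaps a gene without a symbol, at mean levels of 52.2 and 51.8 CPM. Both had a log2 fold change of -0.24. NPIPB6 and NPIPB9 had mean levels of only 0.67 and 0.63 CPM. NUPR1, a stress-induced nuclear protein, had the smallest p, with a log2 fold change of -0.66 (SE 0.21, edgeR adjusted p = 0.26). ATXN2L, a stress granule protein, had -0.36 (SE 0.15), TUFM, the mitochondrial elongation factor, had -0.25 (SE 0.11), and SPNS1, a lysosomal lipid transporter, had -0.29 (SE 0.14). EIF3C was of the opposite sign to nearly all genes around it, and EIF3CL had a larger negative value than any of them. This is a description only, since the pair was selected on its differences in these libraries and the neighbours were not.

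The pattern of EIF3CL over the 6 libraries was followed most closely by ARAP1-AS1 (Pearson r 0.99), LINC02987 (0.99), KLRK1-AS1 (0.99), ISCA1P1 (0.98) and PRH1 (0.98) among 17349 genes with a mean above 1 CPM. Except for PRH1, a gene for a salivary proline-rich protein, these are noncoding RNAs or a pseudogene. The genes with the lowest r were CCDC186 (-0.98), CCDC169-SOHLH2 (-0.98), a gene without a symbol (-0.98), UST (-0.98) and ZNF709 (-0.97). With 6 points and that many genes such values are a ranking only, and their log2 fold changes, from -0.41 to 0.57, were far smaller than that of EIF3CL.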

How the data were processed

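The unit is the raw count per gene that the authors deposited, made with Trimmomatic 0.32 (trimming), HISAT2 2.1.0 (alignment, GRCh38) and featureCounts 2.0.0 (counting) from NEBNext Ultra libraries. Strand setting, treatment of reads that match several places and annotation release are not given for these libraries in the sources used here. For its tumor RNA libraries the paper counted uniquely mapped reads alone, over an earlier GENCODE release. Of 58825 rows, 58472 were matched to GENCODE version 44. Counts kept by filterByExpr were scaled by TMM and tested with edgeR 4.0.16 (quasi-likelihood, group as the only term, Benjamini-Hochberg over 19528 genes) in R 4.3.3. Log2 fold changes are GC0643 overexpression over vector control. DESeq2 1.42.0 and limma 3.58.1 served as alternatives. Transcripts were aligned with edlib 1.3.9.post1. The code was tested on simulated counts. Replicates of a group differed by more than sampling noise.

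The members and lists were chosen with earlier results of these data known. The genes named were all eIF3 subunits, eIF3 pseudogenes with a mean of 10 or more counts, and 6 other pairs of a gene and a close copy. Also named were the 4 smallest p-values among initiation factors, regulators and neighbours within 500 kb, and the 5 highest and 5 lowest correlations with EIF3CL. Expression markers of epithelium, gastric epithelium, mesenchymal state, blood, fibroblasts and endothelium were read as a check of the cells.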

Additional observations from a re-analysis of the deposited data

How the results depend on the processing

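The number of genes past an adjusted p of 0.05, which was 0, became 224 with no filter on low counts, 16 in edgeR's likelihood ratio test, and 1 each with DESeq2 and with DESeq2's size factors. The replicate block passed 24 genes and the block with GC correction 2. Leaving out single libraries gave between 0 and 3813, the highest without vector control replicate 2 (29 without vector control replicate 3). Past the fold change of 1.5 with p under 0.05 there were 482 genes, 936 with no filter, 293 with GC correction, 247 with the block and GC correction, and between 406 and 2141 with a library left out, the highest again without vector control replicate 2. Of the 8 other listed subunits, 0 passed the adjusted p, 1 (EIF3E) passed with no filter and between 0 and 2 with a library left out, while 3 had an unadjusted p under 0.05 and between 1 and 3 did with a library left out. Their median was -0.01 in log2 units and 0.16 with EIF3J, EIF3K, EIF3L and EIF3M added.

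For the 12 other subunits, 182 of 192 values under 16 alternatives kept their direction and side of the threshold, and 6 passed it that did not before. Signs turned in 4: EIF3B with GC correction (0.0045), EIF3G with the block and GC correction (0.0011), and EIF3H with GC correction (-0.0303) and with the block and GC correction (-0.0318). The cause was not tested. With a library left out, the share of EIF3CL differed by between -43.1 and -24.2 percentage points. The summed pair as a share of the median subunit level was 46.9% by merged exon length, the length planned as the main one. It was 24.2% by canonical transcript length and 16.9% by coding length, the last chosen after seeing the data.

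Same-numbered libraries had correlations of their deviations of -0.21, -0.03 and -0.31, and differently numbered ones lay between -0.17 and 0.31. These values over all genes gave no sign of pairing by replicate number. They cannot settle it, and both replicates 3 had nearly the same share of EIF3CL, 26.7 and 26.0%. With the replicate block the log2 fold change was -1.91 for EIF3CL, 0.84 for EIF3C and 0.10 for their sum, and none of the 12 other subunits passed the adjusted p. At these depths EIF3CL rests on as few as 92 counts, and pseudogenes under 10 counts cannot show a difference.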
